A study of Mus musculus with 4 samples.

Results

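The Zscan4 genes are a family of near-identical copies on mouse chromosome 7, and they are described here through 9 listed transcripts under 5 gene symbols, Zscan4b, Zscan4c, Zscan4d, Zscan4e and Zscan4f. Members were all rows whose gene symbol begins with Zscan4, out of 24190 symbols and 58853 transcripts in each table. The 4 libraries come from 2 clonal reporter lines of E14 (ES-E14TG2a), an established male mouse embryonic stem cell (ESC) line, kept without serum and with the MEK inhibitor PD0325901 and the GSK3β inhibitor CHIR99021. All 4 populations carried a stably integrated Zscan4c promoter. What it transcribed was GFP alone in the first line, called the reporter line here, and a fusion of GFP with Zscan4c in the second, called the fusion line. Both lines are described as clonal, and each was sorted by fluorescence into GFP-negative (GFP-) cells, labelled pluripotent, and GFP-positive (GFP+) cells, labelled 2C-like, with 1 library of poly-A RNA per population. No difference between populations therefore has a replicate error.

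Zscan4 proteins pair a SCAN domain, which mediates contacts between proteins, with DNA-binding zinc fingers. In the embryo the genes are transcribed in a burst around the 2-cell stage, when the zygotic genome is switched on. In ESC cultures a small and changing fraction of cells transcribes them together with other genes of that stage, and Zscan4 is known for its part in telomere lengthening and genome stability. The homeobox factor Dux is an upstream activator of this programme.

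The listed copies lay between bases 10900740 and 11519111 of chromosome 7 (GRCm38), a span of 618 kb. GENCODE M21 places 34 other genes between the outermost copies, 31 of them pseudogenes. Of the 9 listed transcripts, 8 matched GENCODE M21, under 7 gene names. For 2 of these the name differed from the deposited symbol. ENSMUST00000165848, deposited as Zscan4d, is named Zscan4-ps1 in M21 (chr7:11065139-11069691). ENSMUST00000091440, deposited as Zscan4f, is named Zscan4-ps2 (chr7:11514310-11519111). M21 types both as protein-coding, with a reading frame of 506 codons as in Zscan4c, Zscan4d and Zscan4f, while Zscan4b and Zscan4e have 505. ENSMUST00000094850, deposited as Zscan4d, had no M21 entry. M21 also holds Zscan4a and Zscan4-ps3, which were not analysed here.

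The copies share most of their sequence. Over 7 full-length transcripts, one per M21 gene, the identity of aligned bases was between 96.6% and 99.8% in 21 pairs, with a median of 97.5%. Zscan4c, Zscan4f and Zscan4-ps2 were 99.3% to 99.8% identical, with 7 differences in 1806 aligned bases between Zscan4c and Zscan4f and 4 between Zscan4f and Zscan4-ps2. Zscan4b and Zscan4e were 99.7% identical, with 5 differences in 1674 bases. The closest pair outside these sets was Zscan4d and Zscan4f at 97.8%. The 60 coding bases with the most differing positions among the 7 transcripts show these sets. They are printed 5′ to 3′ in the direction of the gene, with capitals where a copy differs from Zscan4c.
Zscan4c: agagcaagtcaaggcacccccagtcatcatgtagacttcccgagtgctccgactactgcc
Zscan4f: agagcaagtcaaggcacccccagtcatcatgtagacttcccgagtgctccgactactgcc
Zscan4-ps2: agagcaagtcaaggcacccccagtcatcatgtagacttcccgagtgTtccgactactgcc
Zscan4b: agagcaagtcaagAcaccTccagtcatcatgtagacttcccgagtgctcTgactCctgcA
Zscan4e: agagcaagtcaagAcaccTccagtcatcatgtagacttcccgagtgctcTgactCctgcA
Zscan4d: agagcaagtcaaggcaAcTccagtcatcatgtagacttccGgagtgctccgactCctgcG
Zscan4-ps1: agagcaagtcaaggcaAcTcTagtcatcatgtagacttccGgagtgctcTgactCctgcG
All 7 stretches lie in exon 4 and in the coding part of each gene, and their letters are those of GENCODE M21 on GRCm38. On the plus strand, Zscan4c is at chr7:11009181-11009240, Zscan4f at chr7:11401374-11401433 and Zscan4-ps2 at chr7:11517744-11517803. On the minus strand, Zscan4b is at chr7:10901550-10901609, Zscan4e at chr7:11307179-11307238, Zscan4d at chr7:11162677-11162736 and Zscan4-ps1 at chr7:11066196-11066255. Zscan4f had 0 differences from Zscan4c here and Zscan4-ps2 had 1, while Zscan4b, Zscan4d and Zscan4e had 5 each and Zscan4-ps1 had 7.

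The share of each transcript that is found in no other gene sets how well its reads can be placed. Of all windows of 100 bases in the Zscan4-ps1 transcript, 76.6% occurred in no transcript of another M21 gene on either strand, and of those in Zscan4d 70.4%. The shares were 27.2% for Zscan4c, 25.4% for Zscan4-ps2, 21.4% for Zscan4b, 16.3% for Zscan4e and 10.52% for the full-length Zscan4f transcript. With windows of 50 bases they were 51.6% for Zscan4-ps1, 50.4% for Zscan4d, 14.5% for Zscan4c, 12.4% for Zscan4-ps2, 9.38% for Zscan4e, 7.51% for Zscan4b and 4.66% for Zscan4f. Among these M21 transcripts, Zscan4d and Zscan4-ps1 thus had the largest shares of windows of their own, and full-length Zscan4f the smallest. ENSMUST00000094850, deposited as Zscan4d, has no M21 entry and was not among the transcripts compared. The read length of these libraries is not given in the sources used here.

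Promoter sequence was at hand from RefSeq (GRCm38.p6) for 4 of the 5 symbols. The 250 bases before each annotated start are printed because the reporter of both lines is driven by the Zscan4c promoter. Capitals mark matches to TGATTNAAT on either strand, a core like the one described for Dux, and to the TATA box motif TATAAA.
Zscan4c: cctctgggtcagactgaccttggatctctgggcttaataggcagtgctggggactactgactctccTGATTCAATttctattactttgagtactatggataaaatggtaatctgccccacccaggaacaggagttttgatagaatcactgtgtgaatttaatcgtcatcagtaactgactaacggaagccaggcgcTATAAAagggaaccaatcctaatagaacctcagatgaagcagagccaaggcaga
Zscan4f: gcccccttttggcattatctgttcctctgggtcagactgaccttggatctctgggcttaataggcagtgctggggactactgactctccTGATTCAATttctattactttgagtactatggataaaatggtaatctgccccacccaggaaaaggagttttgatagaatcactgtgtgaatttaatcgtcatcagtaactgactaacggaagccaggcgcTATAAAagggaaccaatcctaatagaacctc
Zscan4b: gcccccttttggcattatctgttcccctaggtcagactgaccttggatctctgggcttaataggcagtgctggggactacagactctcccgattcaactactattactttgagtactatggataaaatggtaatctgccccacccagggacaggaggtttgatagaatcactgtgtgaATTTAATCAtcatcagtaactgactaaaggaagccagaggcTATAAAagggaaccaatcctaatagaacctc
Zscan4d: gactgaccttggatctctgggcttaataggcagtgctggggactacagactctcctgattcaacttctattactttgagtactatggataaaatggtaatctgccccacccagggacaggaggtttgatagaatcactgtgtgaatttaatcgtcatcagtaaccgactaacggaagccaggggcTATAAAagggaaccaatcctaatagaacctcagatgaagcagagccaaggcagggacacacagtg
Zscan4c is at chr7:11005495-11005744 and Zscan4f at chr7:11397665-11397914 on the plus strand, and Zscan4b is at chr7:10905051-10905300 and Zscan4d at chr7:11166149-11166398 on the minus strand. The Zscan4c and Zscan4f promoters differed at 1 of 227 aligned bases, and the pairs of promoters were 94.7% to 99.6% identical. All 4 held TATAAA, which 12.4% of 32851 RefSeq promoters of this length hold. TGATTNAAT was present in Zscan4c and Zscan4f, in the same orientation, and at another position and on the other strand in Zscan4b, against 0.658% of all promoters. None of the 4 windows held TGCACAC, the motif described for Zscan4 itself (3.67% of promoters), or CACACACA, a CA repeat (3.55%). A match describes letters in this window and is not evidence of binding.

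Values are TPM, the share of each transcript in a library after scaling for its length, with gene values summed over listed transcripts. The GFP- library of the reporter line stood apart, where 48.4% of symbols had a value of 0 against 11.6% to 19.5% in the others, so a 0 there cannot be read as absence. Pou5f1, a core pluripotency factor, was between 1075 and 1447 TPM in all 4 libraries. Of 10 pluripotency genes, Pou5f1 among them, 8 were within 2-fold between GFP- and GFP+ cells of each line. Tbx3 was 2-fold or more higher in GFP+ cells of both lines. Klf4 went from 187 TPM in GFP- to 69.5 TPM in GFP+ cells of the reporter line. In the fusion line Klf4 went the other way, from 40.1 to 118 TPM. The 24 measured 2C-like genes outside the Zscan4 family summed to 73.0 and 42.4 TPM in GFP- cells and to 1218 and 2627 TPM in GFP+ cells of the reporter and fusion lines. Most of the GFP- sums was Calcoco2, at 59.1 and 26.6 TPM there and at 94.9 and 28.8 TPM in GFP+ cells. Of other cell types, the 3 measured primitive endoderm markers summed to at most 3.07 TPM over the 4 libraries. The 3 measured trophectoderm markers summed to 23.3 to 39.4 TPM, nearly all of it Tfap2c, with Elf5 at most at 0.0452 TPM and Krt8 at 8.51 TPM in GFP+ cells of the reporter line and 0 elsewhere. The 4 fibroblast markers summed to 9.03 and 3.21 TPM in GFP- cells and to 18.05 and 13.7 TPM in GFP+ cells of the reporter and fusion lines. The collagens Col1a1 and Col1a2 among them were at most at 0.114 TPM, Twist1 was between 3.10 and 9.03 TPM, and Thy1 was listed at 0 in GFP- cells and at 11.9 and 7.27 TPM in GFP+ cells. The part of such cells in the results was not tested.

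In GFP- cells the family was low and uneven. Zscan4c, the gene whose promoter was used for the reporter, was at 9.24 TPM in the reporter line and 4.11 TPM in the fusion line. Zscan4e was listed at 0 in the reporter line and was at 3.85 TPM in the fusion line, and Zscan4b was listed at 0 and was at 1.62 TPM. Zscan4d was at 1.504 and 0.0957 TPM, and Zscan4f at 0.174 and 0.0470 TPM. Summed over the 5 symbols, the lines were close, at 10.9 TPM in the reporter line and 9.73 TPM in the fusion line, but different copies made up the sums. In bulk RNA, a few cells with much Zscan4 RNA and many cells with little cannot be told apart.

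In GFP+ cells of the reporter line, Zscan4c was the highest copy at 497 TPM, rank 182 of all 24190 symbols. Zscan4f was at 170 TPM, Zscan4e at 146 TPM, Zscan4d at 108 TPM and Zscan4b at 52.7 TPM, so that the highest copy was 9.44 times the lowest. In GFP+ cells of the fusion line the 5 deposited symbols were close to each other, though the loci summed under them were not, as the split by transcript shows. Zscan4f was at 369 TPM, Zscan4c at 366 TPM, Zscan4d at 362 TPM, Zscan4e at 359 TPM and Zscan4b at 272 TPM, with the highest 1.35 times the lowest. With 1 library each, the order among the first 4 of these cannot be set against any spread. The sum was 973 TPM in the reporter line and 1728 TPM in the fusion line, or 0.142% and 0.250% of all listed TPM.

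**Figure D1:**
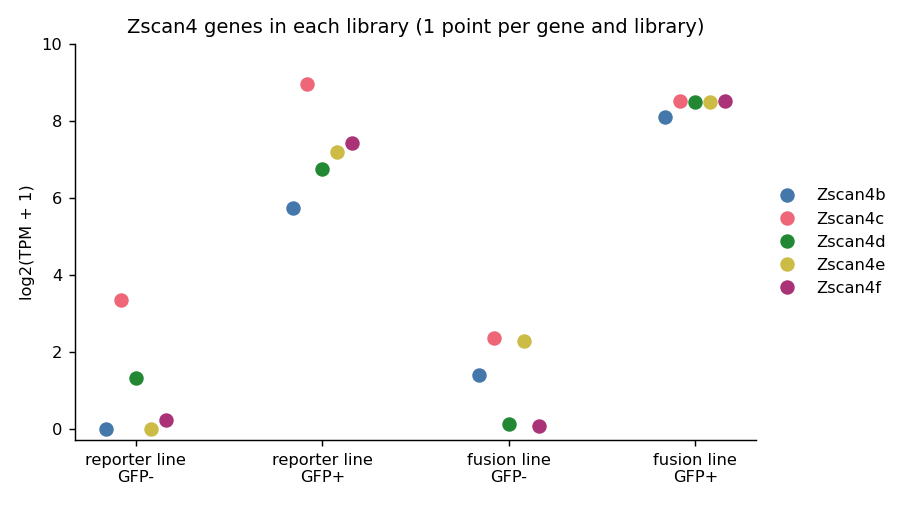
Level of each Zscan4 gene, as log2(TPM + 1), in each of the 4 libraries, with 1 point per gene and library and no error bars since each population is 1 library. In each line the 5 genes lie higher in the GFP+ library, and the 5 symbols lie closest together in GFP+ cells of the fusion line.

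All 5 symbols were 2-fold or more higher in GFP+ cells of both lines. Among genes at 5 TPM or more in either library, 33.2% of 11062 genes were that much higher in the reporter line and 8.23% of 10981 in the fusion line, without a test. On the log2(TPM + 1) scale the median of the 5 symbols was 5.75 in the reporter line and 6.71 in the fusion line, where the median of all genes was 0.19 and 0.14. In the reporter line, Zscan4e and Zscan4f had the 5th and 6th largest log2 ratio of all genes compared, and Zscan4b, Zscan4c and Zscan4d ranked 45, 53 and 69. In the fusion line Zscan4f and Zscan4d ranked 2 and 3, and Zscan4b, Zscan4e and Zscan4c ranked 17, 35 and 37. Zscan4c, the copy with the highest level in both GFP- libraries, had the smallest ratio of the 5 in the fusion line (6.16) and the second smallest in the reporter line (5.60). The order in the reporter line depended on the TPM added before the ratio. With 5 TPM added in place of 1, Zscan4c had the largest ratio there, 5.14 against 3.53 to 5.08 for the others.

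**Figure D2:**
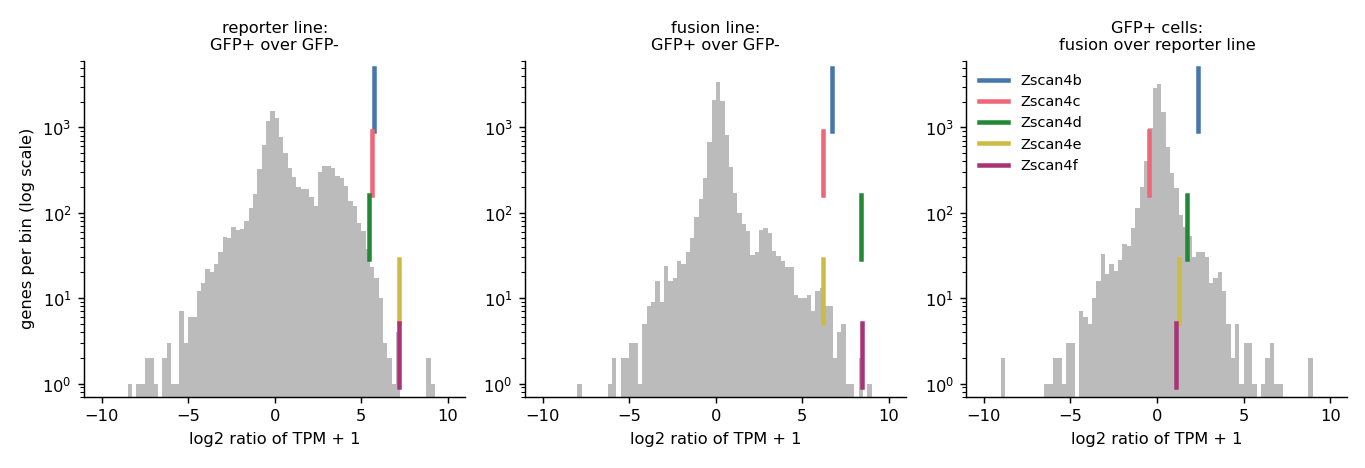
Histograms of the log2 ratio of TPM + 1 over all genes at 5 TPM or more in either library (grey, genes per bin on a log scale), for 3 comparisons, with a coloured bar at each Zscan4 gene's ratio, staggered in height so that all can be seen. The Zscan4 genes lie at the upper end for GFP+ over GFP- cells in both lines, between 5.44 and 8.46, and lie nearer to 0 between the GFP+ libraries, where Zscan4c is at -0.44.

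Fitted over both lines with GFP status and line as terms, limma with Benjamini-Hochberg adjustment called 0% of 14379 genes at an adjusted p under 0.05, and none of the 5 Zscan4 genes (adjusted p = 0.397 for Zscan4c and 0.460 for each of the others). The unadjusted p in limma was under 0.05, in the higher direction, for all 5, against 5.90% of the genes tested. The estimate for Zscan4f was a log2 difference of 7.82 (SE 0.54, 4 libraries), with GFP+ above GFP- in both lines, and that for Zscan4b was 6.23 (SE 0.55). With 4 libraries the fit leaves 1 residual degree of freedom, which holds how far the lines disagree. The eBayes step of limma combines this with the spread of all genes tested, so SE and p do not rest on a gene's own values alone. The cells were sorted on a Zscan4c promoter, and the transgene of the fusion line can itself add reads to Zscan4c. The estimates and p-values of the Zscan4 genes are therefore not independent of the sort.

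Each copy's share of the family total shifted between libraries. Zscan4c made up 84.6% of the summed TPM in GFP- and 51.1% in GFP+ cells of the reporter line, and 42.3% and 21.2% in the fusion line. Its share was therefore lower in GFP+ than in GFP- cells of each line, and lower in the fusion line in each population. Zscan4f went from 1.60% to 17.4% in the reporter line and from 0.483% to 21.3% in the fusion line. Zscan4d was at 13.8% and 11.1% in the reporter line and at 0.984% and 20.95% in the other. Zscan4e made up 14.99% of the family total in GFP+ cells of the reporter line. In GFP- and GFP+ cells of the fusion line it made up 39.6% and 20.8%. For Zscan4b these shares were 5.41%, 16.7% and 15.8%. A share within a library does not depend on how libraries are scaled to each other. The GFP- shares rest on sums of 10.9 TPM in the reporter line and 9.73 TPM in the fusion line. How reads were divided between near-identical copies was not tested.

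**Figure D3:**
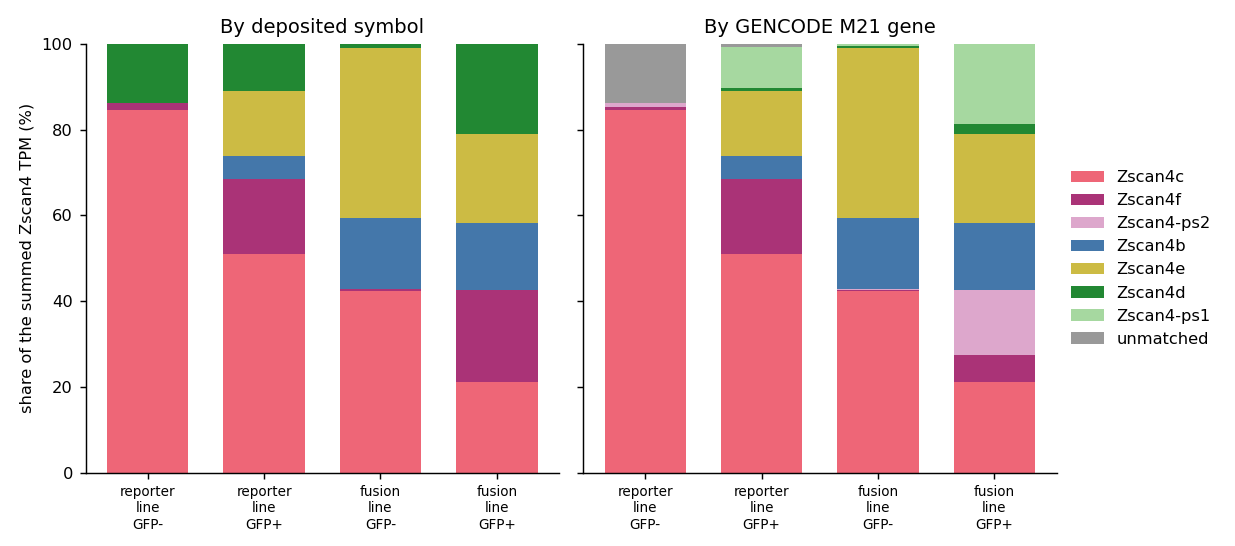
Share of each copy in the summed Zscan4 TPM of each library, in percent, with transcripts named by the deposited symbols (left) and by GENCODE M21 (right), where "unmatched" is the transcript with no M21 entry. Zscan4c falls from 51.1% to 21.2% between the GFP+ libraries. In these 2 libraries the M21 names move most of Zscan4d to Zscan4-ps1 and, in the fusion line, most of Zscan4f to Zscan4-ps2.

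Split by transcript, most of the Zscan4d signal in GFP+ cells came from the copy that M21 names Zscan4-ps1. That transcript was at 92.1 TPM, or 85.6% of the symbol, in GFP+ cells of the reporter line and at 319 TPM, or 88.2%, in those of the fusion line. The transcript that M21 itself names Zscan4d was at 8.19 and 41.4 TPM, the lowest of the 7 M21 genes in the fusion line. The unmatched transcript was at 7.35 and 1.14 TPM, and in GFP- cells of the reporter line it carried all of the symbol's 1.504 TPM. Named by M21, Zscan4d was thus 0.842% and 2.40% of the family in the GFP+ libraries, where the deposited symbol gave 11.1% and 20.95%. These copies have the largest share of windows of their own, as given above.

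Zscan4f was likewise a sum of separate loci, and its makeup differed between the lines. In GFP+ cells of the reporter line, Zscan4-ps2 was listed at 0 and the full-length Zscan4f transcript was at 150.3 TPM. In those of the fusion line, Zscan4-ps2 was at 259 TPM, or 70.3% of the symbol, and the full-length Zscan4f transcript was at 66.5 TPM. A short Zscan4f transcript of 521 bases, with 77 codons, was at 19.4 and 43.0 TPM, or 11.4% and 11.7% of the symbol. By M21 names, Zscan4f was therefore lower in the fusion line (110 against 170 TPM), whereas the deposited symbol was higher (369 against 170 TPM). The full-length Zscan4f and Zscan4-ps2 transcripts are 99.8% identical, and how reads were divided between them was not tested. Zscan4b, Zscan4c and Zscan4e had 1 listed transcript each.

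**Figure D4:**
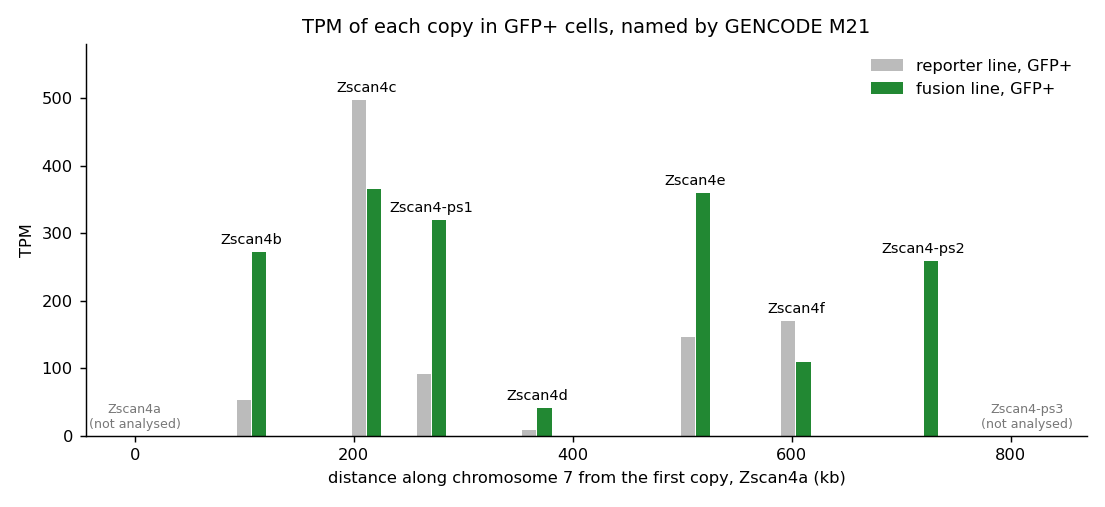
TPM of each copy, named by GENCODE M21, in GFP+ cells of the reporter line (grey) and of the fusion line (green), placed by the distance of its start from that of Zscan4a in kb. Zscan4-ps2 has a bar in the fusion line only, at 259 TPM, and Zscan4d is low in both lines, at 8.19 and 41.4 TPM.

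The comparison of both GFP+ libraries asks how the listed copies stand when the reporter also delivers Zscan4c. RNA of that transgene can add reads to Zscan4c and to its near-identical copies, so the values are not those of the endogenous genes alone. Of the 5 symbols, 4 were 2-fold or more higher in the fusion line and 0 were 2-fold or more lower, where 5.71% of 11126 genes were higher and 4.05% lower. By ratio of TPM, Zscan4b was 5.17 times, Zscan4d 3.36 times, Zscan4e 2.46 times and Zscan4f 2.17 times its level in the reporter line. Zscan4c, the copy that the fusion contains, was 0.735 times its level there. The sum was 1.78 times higher with Zscan4c and 2.86 times higher without it. In GFP- cells only Zscan4c reached 5 TPM in a library, and it was 2-fold lower in the fusion line (log2 -1.002), where 8.49% of 10672 genes were. This value lies at the threshold and missed it under median-ratio scaling (-0.87) and with a pseudocount of 5 TPM (-0.64). The clone and the construct differ together between the lines, so these cannot be told apart.

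Summed over copies that are 99% or more identical, the lines differed less for the set that holds Zscan4c. Zscan4c, Zscan4f and Zscan4-ps2 together were at 667 TPM in GFP+ cells of the reporter line and at 734 TPM in those of the fusion line, a ratio of 1.10. Zscan4b and Zscan4e together were at 199 and 631 TPM, a ratio of 3.18. Zscan4-ps1 was at 3.47 times and Zscan4d at 5.06 times its level in the reporter line. The first set held 68.5% of the family in the reporter line and 42.5% in the fusion line, and Zscan4b with Zscan4e 20.4% and 36.6%. In GFP- cells the first set was at 9.42 and 4.16 TPM, and Zscan4b with Zscan4e was listed at 0 and at 5.47 TPM. The sets were formed after the values had been seen, by the identity of the transcripts, and have no test. In the fusion line, RNA of the transgene can add reads to the first set.

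**Figure D5:**
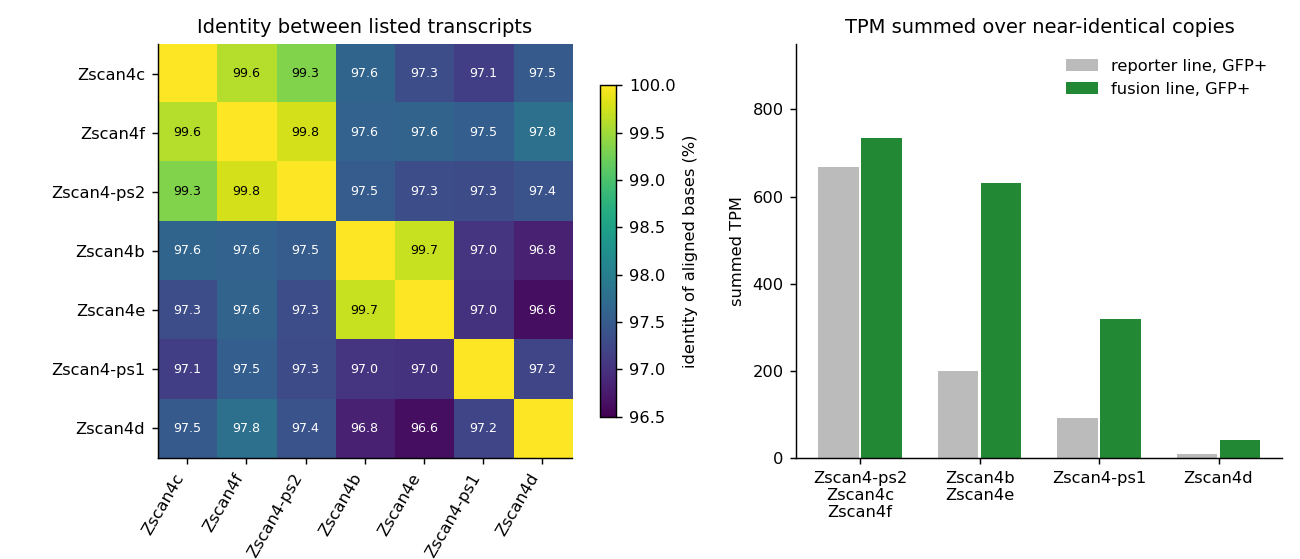
Left, identity of aligned bases in percent between the 7 full-length listed transcripts, where Zscan4c, Zscan4f and Zscan4-ps2 form one block above 99% and Zscan4b and Zscan4e another. Right, TPM summed over copies that are at least 99% identical in both GFP+ libraries: the Zscan4c set is at 667 and 734 TPM, and the Zscan4b and Zscan4e set at 199 and 631 TPM.

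The genes whose pattern was most like the family total were sought among 11793 genes at 5 TPM or more in a library, by the distance between centred log2(TPM + 1) profiles over the 4 libraries. Closest was Tmem92, a membrane protein gene on chromosome 11, at a distance of 0.34, where the median gene was at 6.67. Tmem92 was listed at 0 in both GFP- libraries and was at 64.8 TPM in GFP+ cells of the reporter line and 136 TPM in those of the fusion line. The next 4, Gm21293, Gm20765, Gm21312 and Gm8764, at distances of 0.36 to 0.53, are neighbours on chromosome 10. Gm21293 was at 3.999 and 316 TPM in the reporter line and at 3.79 and 753 TPM in the fusion line. Profiles over 4 libraries hold little information, and likeness here describes these libraries.

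Marker genes of the 2C-like state outside the family went the same way. Of the 24 measured, 24 were higher by any amount in GFP+ cells of each line, a share not counted over all genes. Of those at 5 TPM or more, 18 of 19 were 2-fold or more higher in the reporter line and 17 of 18 in the fusion line, against the 33.2% and 8.23% of all genes given above. Between the GFP+ libraries 10 of 20 were 2-fold or more higher in the fusion line and 3 were 2-fold or more lower. Of all 11126 genes compared, 5.71% were higher and 4.05% lower. The median log2 ratio of these markers was 1.01, where that of the Zscan4 symbols was 1.29 and that of all genes 0.05. The 3 lower were Pramef25, Usp17ld and Calcoco2. They were at 23.2, 19.1 and 94.9 TPM in the reporter line and at 0.814, 2.88 and 28.8 TPM in the fusion line. Gm20767 was at 219 and 664 TPM and Gm4340 at 355 and 855 TPM in these libraries, while Gm5662 was at 91.8 and 83.9 TPM.

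Genes that act upstream of Zscan4 were also higher in GFP+ cells. Of 5 measured activators, 5 were 2-fold or more higher in the reporter line and 4 in the fusion line, where 33.2% and 8.23% of all genes were. Duxf3, which encodes Dux, was at 0.134 and 7.72 TPM in the reporter line and at 0.378 and 7.36 TPM in the fusion line, so that its level in GFP+ cells was far below that of any Zscan4 symbol. Nelfa, a subunit of the pausing factor NELF, was at 38.6 and 114 TPM, then 42.5 and 224 TPM. For Dppa2, an activator of Dux, the values were 31.8 and 85.6 TPM, then 3.02 and 66.1 TPM, and its partner Dppa4 was listed at 0 and at 38.0 TPM, then at 29.2 and 32.8 TPM. Between the GFP+ libraries 0 of these 5 were 2-fold apart in either direction, and of all genes 5.71% were higher and 4.05% lower. Nelfa lay just under this threshold, with a log2 ratio of 0.97 for the fusion line over the reporter line.

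Repressors of the 2C-like state and partners of Zscan4 were mostly within 2-fold. Of 26 repressors, 7 were 2-fold or more higher and 1 lower in the reporter line, and 2 higher and 0 lower in the fusion line, shares near those of all genes (33.2% and 8.23% higher, 7.48% and 3.14% lower). Zmym2, E2f6 and Kat5 were among the 7 and had listed zeros in GFP- cells of the reporter line. Setdb1, a histone methyltransferase gene that silences retroelements, was at 2.77 and 42.1 TPM in the reporter line and at 37.7 and 49.5 TPM in the fusion line. All 6 genes for described protein partners of Zscan4 were within 2-fold in both lines. Tet2, a DNA demethylation enzyme gene, was at 32.6 and 19.99 TPM, then 21.5 and 26.1 TPM. Uhrf1 of DNA methylation maintenance was at 320 and 281 TPM, then 227 and 212 TPM.

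Of 21 other SCAN zinc finger genes (symbols beginning with Zscan or Zkscan), 3 of the 10 at 5 TPM or more were 2-fold or more higher in the reporter line and 1 was lower, and 3 of 11 were higher in the fusion line. Of all genes, 33.2% were that much higher in the reporter line and 8.23% in the fusion line. Their summed TPM was 135 and 182 in the reporter line and 206 and 229 in the fusion line. Zkscan6, at 0 wherever GFP was absent, reached 6.20 TPM in the reporter and 5.27 TPM in the fusion line. Zkscan1 went from a listed 0 to 5.68 TPM in the reporter line and from 2.57 to 5.85 TPM in the other. Of the symbols listed here, 0 lay between the outermost Zscan4 copies and 7 within 500 kb of them. Of these 7, only the processed pseudogene Gm6900 reached 5 TPM, at 20.3 and 51.8 TPM in the reporter line and 14.9 and 20.6 TPM in the fusion line. Zik1, a zinc finger gene, had listed zeros in GFP- cells and 2.40 and 2.52 TPM in GFP+ cells. The vomeronasal receptor genes Vmn1r67, Vmn1r71 and Vmn1r74, the pseudogene Vmn1r-ps53 and the small nuclear RNA gene Gm24414 were below 0.06 TPM in all 4 libraries.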

How the data were processed

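Poly-A RNA of 4 sorted populations was copied with random hexamers and sequenced, 1 library each (labels' protocols). The authors deposited TPM per transcript. HISAT2 2.1.0, StringTie 1.3.5, CASAVA and build GRCm38 (mm10) are named in the submitters' processing notes. Not given in the sources used here are options, annotation release, strand setting and how listed transcripts were chosen. Listed TPM sum to 66.6% to 69.1% of the full TPM scale. Since TPM hold no read numbers, depth is unknown and intervals for counting error are not available. TPM are relative within a library, and how reads that fit several copies were divided is not stated.

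TPM were summed per symbol. Ratios use log2(TPM + 1), which understates changes of low genes, and genes 2-fold apart were counted at 5 TPM or more in either library, with no test. limma 3.58.1 in R 4.3.3 (eBayes, robust and trended; two-sided; Benjamini-Hochberg over all genes) used genes reaching 1 TPM in 2 or more libraries. Separate cultures are not named in the labels: p-values reflect the spread of these libraries alone. Transcripts were aligned in pairs (Biopython 1.88, free end gaps) and together (MAFFT). Alternatives were other scalings, pseudocounts, filters, transcript choices, models and left-out libraries. A value counted as moved where it changed by over 1.5 times. Named genes were all Zscan4 symbols, up to 4 per list with the largest mean ratio, listed genes within 500 kb and the 5 nearest patterns. Others were named, and the M21 names and sets of near-identical copies added, after their values were seen. Members and lists were chosen with earlier results of these data known.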

Additional observations from a re-analysis of the deposited data

Results flagged for a closer look

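Differences between the lines ran in opposite directions in GFP+ and GFP- cells for 4 quantities, each from 1 library per population, and the difference was not tested. On the log2(TPM + 1) scale, the fusion line over the reporter line was 1.74 in GFP+ and -1.19 in GFP- cells for Zscan4d, and 1.11 and -0.17 for Zscan4f. The sum of the 5 symbols gave 0.83 and -0.15. The transcript named Zscan4-ps2 in GENCODE M21 gave 8.02 and -0.11. Named by M21, the opposite signs of Zscan4d and Zscan4f were gone: Zscan4d gave 2.21 and 0.08, Zscan4-ps1 gave 1.78 and 0.06, and Zscan4f gave -0.63 and -0.06. The unmatched transcript deposited as Zscan4d, which holds the symbol's 1.504 TPM in GFP- cells of the reporter line, gave -1.96 and -1.32. The GFP- values behind these are at most 1.504 TPM for the single genes, and the library of the reporter line among them has the most zeros.

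For Zscan4-ps2 the GFP+ over GFP- ratio also had opposite signs, at 7.99 in the fusion line and -0.14 in the reporter line, where the transcript was at 0.104 TPM and listed at 0. This difference was not tested either.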

How the results depend on the processing

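Of 50 recomputed single-gene ratios of GFP+ over GFP- cells, under pseudocounts of 0.1 and 5 TPM, rescaling to equal totals, median-ratio scaling and quantile normalization, 0 changed sign, 32 stayed within 1.5 times and 18 moved further, between 3.53 and 11.3 on the log2 scale. The family ratio in the reporter line was 5.59 under quantile normalization against 6.35. Between the GFP+ libraries it was 1.52 without Zscan4c and 0.38 without the transcripts that M21 names as pseudogenes, against 0.83. The median of the 5 symbols in the reporter and fusion lines was 9.04 and 7.31 with a pseudocount of 0.1 TPM, and 4.92 and 5.39 with 5 TPM. Between the GFP- libraries it was -0.17, and -0.90 with 0.1 TPM and -1.26 under quantile normalization. The share of Zscan4c stayed within 1.5 times in every library under the 3 alternatives run. Zscan4d and Zscan4f shares moved with the M21 names, as the report gives. In GFP- cells of the reporter line the Zscan4d share also went from 13.8% to 0 with TPM multiplied by length. This 0 reflects a missing length: all of the symbol's TPM there was the unmatched transcript, which has no M21 length and was left out. With the most abundant transcript alone the Zscan4f share in that library went from 1.60% to 0.954%. In GFP- cells of the fusion line the latter choice gave 0.579% for Zscan4d and 0.249% for Zscan4f, against 0.984% and 0.483%.

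Without a filter, the genes 2-fold or more higher numbered 5786 in the reporter line, 1726 in the fusion line, 1159 between GFP+ and 4934 between GFP- libraries, against 3676, 904, 635 and 3214. Among genes above 0 in both libraries, 1539 were higher in the reporter line and 1295 between the GFP- libraries. Under quantile normalization, higher genes as a share of those 2-fold apart went from 81.6% to 65.6% (reporter line), from 72.4% to 59.8% (fusion line) and from 78.0% to 65.3% between the GFP- libraries. In limma, 0 genes passed over all genes, 972 had an unadjusted p under 0.05, and a pseudocount of 5 TPM gave 3 genes, Zscan4c among them. Leaving out 1 library at a time, with no term for the line, gave 0 to 4204 genes. The 4204, with all 5 Zscan4 genes, came without GFP- cells of the fusion line, when GFP- cells are represented by the reporter line alone, with its 48.4% of zeros. The remaining lone library is then assumed to vary like the pair it is set against. Over these settings the adjusted p of Zscan4c ranged from 0.0108 to 0.979. The limma fit compares GFP+ with GFP- cells within each line, and without the line term it also gave 0 genes. The labels give no replicate numbers, so no other pairing was made.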
